A study of Mus musculus with 28 samples.

Results

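The comparison described here sets the 3 RNA-seq libraries of C2C12 cells kept for 96 h in differentiation medium (DM) against the 3 libraries at 48 h in DM, across all genes of the deposited count table. These 6 libraries are 6 of the 18 RNA-seq libraries and of the 28 samples of the series. C2C12 is an immortalised mouse myoblast line. Per the labels, the cells grew in growth medium (GM) with 20% fetal bovine serum, and near confluence they were given DM with 3% horse serum, which all 6 libraries share. Per the labels the 48 h and 96 h groups differ in time alone, and no batch is given. Every change below thus includes 48 h more of culture, and any unrecorded batch of the groups cannot be told apart from time. Total RNA was extracted with TRIzol and made into strand-specific libraries. The labels call the replicates biological but describe no separate cultures. The p-values thus refer to the spread among these libraries, which may be technical. The times are those of the titles; in the growth protocol texts the hour runs up from sample to sample and does not follow the titles. The series also has RNA-seq in GM and at 12, 24 and 60 h, and ATAC-seq and Hi-C in GM and at 60 h. None of the samples is a count of nuclei or of fused cells, so how far myotubes had formed was not measured.

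When serum is lowered, myoblasts leave the cell cycle, turn on myogenin and fuse into multinucleated myotubes. In the days that follow the myotubes build sarcomeres, the repeated units of thick myosin and thin actin filaments, and the triads, where the calcium channel of the surface membrane meets the calcium release channel of the sarcoplasmic reticulum. Mammalian muscle makes embryonic and perinatal myosin heavy chains first and adult fast and slow isoforms later. Myoblasts that do not fuse can remain in such cultures as mononucleated reserve cells.

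The data hold 15303 genes with enough counts to test, of 49089 in the table, of which 22315 had no count in any library. Total counts were 24154680 to 30627715 at 48 h and 30454492 to 31308032 at 96 h. Levels are given as CPM, counts scaled to library size after TMM normalisation, which is meant to adjust for differences in composition between libraries. The principal component with most variance, 72.8% over the 6 libraries, separated the times. A gene was called where the adjusted p of edgeR's quasi-likelihood F test was under 0.05. Changes of a gene are log2 fold changes, given ± their standard error (SE) at n = 3 libraries per time. At 96 h 4043 genes were higher (26.4% of those tested) and 3562 lower (23.3%) than at 48 h, so 49.7% of all genes tested were called. Of these, 612 were at least 2-fold higher (4%) and 867 at least 2-fold lower (5.67%). The median log2 fold change was 0.37 among genes called higher, −0.51 among those called lower and 0.003 over all genes tested. The balance of the calls depended on scaling: 53.2% of the calls were higher with TMM, 42.2% with upper-quartile scaling and 39.5% with total counts, where the median of all genes stood at −0.059 and −0.077.

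Muscle genes were looked at first. Myog, Myh3, Acta1, Ckm, Des, Ttn, Actn2 and Tnnt3, the listed markers of skeletal muscle, were each higher at 96 h than at 48 h. Their changes ran from 0.54 for desmin to 3.43 for the actinin of the Z-disc on the log2 scale. The markers were chosen with earlier results of these data known, so their rise does not test the label. Ttn is also 1 of the 6 long transcripts described below. In these bulk samples fewer cells of a type and less RNA per cell cannot be told apart, here and for every cell-type or cell-cycle gene that follows. Markers of other cell types were mostly too low to test. Of 10 adipocyte markers 3 were tested and 2 were lower; of 11 bone and cartilage markers 4 were tested and 2 were higher; of 10 fibroblast and mesenchymal markers 6 were tested, with 1 higher and 2 lower. Of 10 endothelial markers 4 were tested and 1 was lower. Of 10 macrophage and leukocyte markers 2 were tested and both were lower, and of 10 neural markers 3 were tested and 2 were lower. Over all genes tested 26.4% were higher and 23.3% lower. The endothelial share called lower, 25%, was near the latter, and each of these lists had few genes tested. The summed level of a list ranged from 66.4 to 70.4 CPM at 48 h and from 43.2 to 44.3 CPM at 96 h for adipocyte markers, most of it Plin4. It ranged from 6.67 to 7.68 and from 4.74 to 5.38 CPM for macrophage markers and from 72.7 to 77.4 and from 38.3 to 40.6 CPM for neural markers. For the others it was 19.7 to 21.9 and 22.7 to 24.3 CPM (bone and cartilage), 327 to 339 and 301 to 325 CPM (fibroblast) and 6.69 to 7.85 and 4.30 to 5.49 CPM (endothelial). The adipocyte genes Plin1, Lep, Cidec, Retn and Cfd and the macrophage genes Adgre1 and Tyrobp had 0 counts in all 6 libraries. So did the bone gene Ibsp, the cartilage gene Acan, the fibroblast genes Thy1 and Tcf21 and the neural genes Rbfox3 and Sox10. The marker calls of Cd68, Sox9 and Pdgfrb were lost when any of several single libraries was left out, and that of Osr1, whose libraries overlapped between the times, without the second 48 h library. Pdgfrb, the 1 fibroblast marker called higher, was also not called with upper-quartile or total-count scaling. In the fit with the covariate described in the next paragraph Col10a1, Cd14 and Pparg were not called (1.855, −0.451 and −0.513). In that fit 0 bone and cartilage markers were higher and 1 was lower. With a filter of at least 1 CPM in 3 libraries 0 of them were higher. The part of these markers in the results was not tested.

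A set of 6 long transcripts moved with time and with 1 library outside the comparison, and is given before the results because it touches many of them. Polr2a encodes the main catalytic subunit of RNA polymerase II, Kmt2d a histone methyltransferase, Lrp1 an endocytic receptor, Hspg2 the basement membrane proteoglycan perlecan, Fn1 fibronectin and Ttn the giant spring protein titin. Their mean log2 CPM was 7.71 to 7.97 at 48 h, 7.27 to 7.38 at 60 h and 9.29 to 9.53 at 96 h. The third library at 24 h stood at 8.56 against 7.18 and 7.48 in the other 24 h libraries. Polr2a read 16.3, 19.3 and 13.4 CPM at 48 h, at 60 h 10.7, 10.3 and 9.89 CPM and at 96 h 57.2, 59.9 and 66.6 CPM. It was 1.9 ± 0.28 higher at 96 h than at 48 h (adjusted p = 9.67e-06), and all 6 transcripts were called higher with a median of 1.38. When the mean level of these 6 transcripts was added to the model as a covariate, 2339 genes were higher and 2131 lower. Polr2a, Kmt2d, Lrp1, Hspg2, Fn1 and Ttn make up the covariate, so their own values in that fit carry no information. The covariate itself differs between the times, and its part in the results below was not tested beyond that fit. Without the third 24 h library every named call in the comparison was the same.

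**Figure D1:**
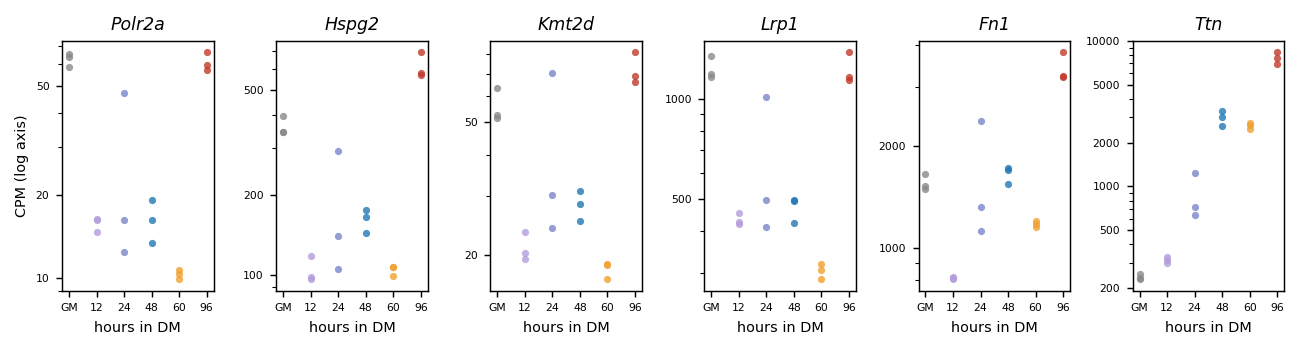
Levels of 6 long transcripts in each of the 18 RNA-seq libraries, in CPM on log axes that differ between panels; the x axis gives the hours in DM after GM, and each point is 1 library. In every panel the 3 points at 96 h lie above the 3 at 48 h, and 1 of the 24 h points stands above the other 24 h points.

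Sarcomere genes held 7 of the 15 largest rises. All 8 sarcomeric myosin heavy chain genes that could be tested were higher, against 26.4% of all genes tested (median 3.19), and their summed level went from 181 to 198 CPM at 48 h to 1732 to 1865 CPM at 96 h. Myh3, the embryonic heavy chain, stood at 129, 129 and 141 CPM in the 48 h libraries and at 1193, 1151 and 1234 CPM in the 96 h libraries. The times do not overlap, and the rise was 3.17 ± 0.07 (adjusted p = 1.1e-18). Myh8, the perinatal heavy chain, went from 4.89, 5.37 and 5.94 CPM to 82.6, 74.5 and 83.2 CPM, a rise of 3.90 ± 0.13 (adjusted p = 2.34e-16). The adult fast 2X chain Myh1 went from 33.6, 32 and 36 CPM to 409.5, 395 and 424 CPM. Its rise of 3.60 ± 0.069 is 12.1-fold (adjusted p = 1.43e-19). For all 3 chains each 96 h library lay above each 48 h library.

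The other adult chains moved the same way. Myh2, the fast 2A chain, rose 3.80 ± 0.17, from 0.985, 1.32 and 1.11 CPM to 16.4, 14.6 and 16.7 CPM. Myh4, the fast 2B chain, rose 2.77 ± 0.14, from 2.86, 2.79 and 2.6 CPM to 19.2, 18.7 and 18.8 CPM. Myh7, the slow and cardiac chain, rose 2.95 ± 0.11, from 7.59, 9.45 and 9.82 CPM to 69.7, 64.4 and 73.1 CPM. None of these had overlapping times, and embryonic, perinatal, fast and slow chains were thus all higher at 96 h. Myh6, the cardiac alpha chain, and Myh7b rose by 3.21 and 2.65. The extraocular chain Myh13 had 0, 1 and 0 counts at 48 h and 4, 2 and 1 at 96 h and could not be tested.

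Light chains and myosin-binding proteins rose with them, 9 of 9 tested (median 2.54; summed level 672 to 740 CPM at 48 h and 3066 to 3285 CPM at 96 h). Myl4, the essential light chain of embryonic muscle and adult atria, read 31.3, 34.2 and 37.3 CPM at 48 h and 526, 510.1 and 559 CPM at 96 h. Its rise of 3.96 ± 0.083 (15.6-fold, adjusted p = 5.16e-19) was the second largest among protein-coding genes above the level minimum, a log2 CPM of 3 on average over the 6 libraries. Myl2, the slow and ventricular regulatory light chain, went from 0.381, 0.179 and 0.248 CPM to 17.6, 17.1 and 17.2 CPM. Mybpc2, the fast isoform of myosin-binding protein C, went from 0.159, 0.107 and 0.0826 CPM to 4.08, 4.3 and 3.8 CPM. These were the largest changes of the list, 5.96 ± 0.24 and 5.04 ± 0.39, from 48 h levels under 1 CPM. Mybph, myosin-binding protein H, rose 3.00 ± 0.068 from 59.2, 56 and 58.1 CPM. Myl1 and Mylpf, light chains of fast fibres, rose by 1.92 and 1.78. With the covariate 6 of the 9 were called, and Mybpc2 was not (3.81, adjusted p = 0.0514).

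In the thin filament 15 of 17 genes were higher and 1 lower (median 2.13; 2262 to 2377 and 7765 to 8317 CPM summed). Acta1, the skeletal actin, stood at 257, 270.1 and 259.9 CPM at 48 h and 1519, 1489 and 1764 CPM at 96 h, a rise of 2.60 ± 0.072 (adjusted p = 2.04e-17). Actc1, the cardiac actin used by developing muscle, rose 2.13 ± 0.071. The inhibitory troponins of slow and fast fibres, Tnni1 and Tnni2, rose 2.95 ± 0.071 and 2.74 ± 0.096, and Tnnc1, the slow and cardiac calcium sensor, rose 2.69 ± 0.069. Slow and fast isoforms of the same subunit were both higher. Tpm3 was the 1 gene called lower. It fell by 0.44 on the log2 scale, from 243, 249 and 249.7 CPM to 183, 187 and 177 CPM (adjusted p = 1.18e-08). The 1 member not called had the lowest value of the list, −0.88. In the fit of the 6 libraries alone 2 members were called lower. Tpm3 has several products. It encodes the slow muscle tropomyosin and also widely expressed non-muscle isoforms, which gene counts do not separate.

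Z-disc, M-band and titin genes were higher in 19 of 21 cases with 0 lower (median 1.72). Tcap, which caps titin at the Z-disc, went from 0.858, 0.787 and 0.619 CPM to 8.95, 8.51 and 9.78 CPM and Actn2, the sarcomeric actinin, from 1.78, 0.751 and 1.24 CPM to 14, 13.4 and 13.8 CPM. Both lay apart between the times (3.57 ± 0.20 and 3.43 ± 0.20). Myoz2, a calcineurin-binding Z-disc protein, rose 3.16 ± 0.13 and Csrp3, the muscle LIM protein, 2.76 ± 0.12. Ttn read 3316, 2988 and 2613 CPM and 7691, 6992 and 8381 CPM, and its rise of 1.37 ± 0.15 is smaller than that of most of the list. With the covariate for the 6 long transcripts, of which it is 1, 17 of the 21 were called and the median was 1.19.

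Of the folding and assembly factors of the sarcomere 11 of 15 were higher and 3 lower (median 1.37). Unc45b, the myosin chaperone, went from 8.77, 9.88 and 11.3 CPM to 63.6, 58.9 and 64.2 CPM (2.65 ± 0.098). Klhl41, which stabilises thin filament proteins, rose 2.23 ± 0.072 and the muscle small heat shock genes Hspb2, Hspb3 and Hspb7 by 1.76, 2.65 and 2.63. Lower at 96 h were the general chaperones Hspb1 (−0.25 ± 0.064) and Hsp90aa1 (−0.27 ± 0.049) and the LIM protein Fhl3 (−0.59 ± 0.072). With the covariate 9 were higher and 2 lower, and Hspb7 and Hsp90aa1 were not called (1.75 and −0.10).

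Among the 15 protein-coding genes with the largest rises, 5 were in none of the lists. Ankrd2, a titin-associated ankyrin repeat protein of the I-band, had the largest rise among protein-coding genes at or above the level minimum. It stood at 2.13, 2.15 and 2.44 CPM at 48 h, at 60 h 8.69, 6.42 and 8.48 CPM and at 96 h 40.3, 43.9 and 43.6 CPM. Each later time lay above the one before, and the rise from 48 to 96 h was 4.25 ± 0.14, 19.1-fold (adjusted p = 3.95e-16). Adamtsl2, a secreted glycoprotein of the matrix, rose 3.56 ± 0.11, from 2.57, 2 and 2.56 CPM to 25.3, 28.9 and 30.4 CPM. Trim72, which patches torn muscle membranes, went from 16, 15.4 and 15.9 CPM to 158, 160.0 and 167 CPM (3.36 ± 0.082). Pgm5, a phosphoglucomutase relative found at muscle adhesions, rose 3.28 ± 0.10, and Itgb1bp2, the integrin-binding chaperone melusin, 3.20 ± 0.14.

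**Figure D2:**
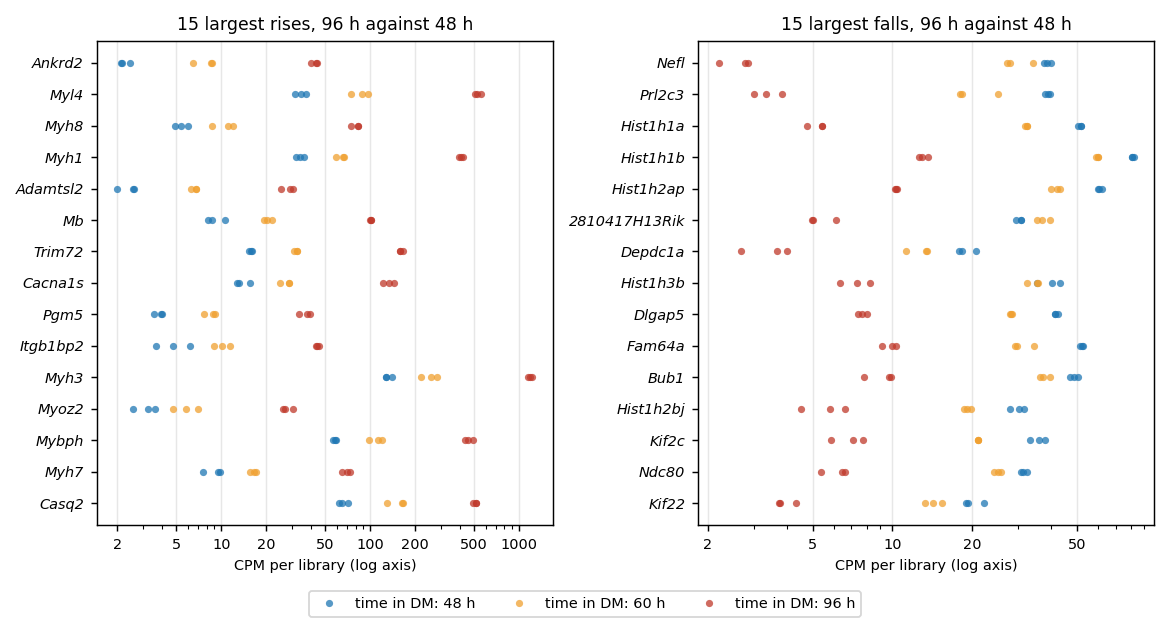
Level of the 15 protein-coding genes with the largest rise (left) and the 15 with the largest fall (right) from 48 to 96 h, in CPM on log axes; each point is 1 of the 3 libraries at 48, 60 or 96 h. The 96 h points lie apart from the 48 h points for each gene; the 60 h points lie between them for the rises and for all falls shown except 2810417H13Rik, where they lie above those at 48 h (35.3 to 39.4 CPM), and Hist1h3b, where they overlap those at 48 h.

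The start sites of these genes can be set beside the deposited ATAC-seq peaks, which mark open chromatin. There is 1 peak list for GM and 1 for 60 h, for 2 libraries each, and none at 48 or 96 h. Only the 60 h list thus falls within the interval, and the lists allow no test. A peak at 60 h alone is one absent from the GM list, and it may date from before 48 h. Windows of 250 bases before to 50 after the start were taken from RefSeq (GRCm38.p6) for 10371 of the 15303 genes tested. Some genes have several windows, and a peak over any of them counted. A peak overlapped a window in both lists for 92.4% of these genes and at 60 h alone for 108 (1.04%). Among genes at least 2-fold higher at 96 h, 52 of 426 (12.2%) had a peak at 60 h alone and 75 (17.6%) in neither list, where 6.03% of all had none; 68.5% had one in both. At 60 h alone it was 5 of 488 (1.02%) of those at least 2-fold lower. Of the sarcomere genes with a window, 14 of 44 (31.8%) had a peak at 60 h alone, Myh3, Myh4, Myh7, Myh8, Myl2, Tnnc1 and Tnni1 among them. Of the 14 largest rises with a window, 7 had a peak in both lists and 7 at 60 h alone.

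Printed here are the windows of the 3 largest rises, each the gene's single window, to show the letters around the start of genes that rose together (5′ to 3′, GRCm38.p6, plus strand). Capitals mark matches to the E-box CANNTG, bound by the MyoD family, and to the MEF2-type motif, CTA and TAG with any 4 bases between them; both read alike on either strand.
Ankrd2, chr19:42035777-42036076: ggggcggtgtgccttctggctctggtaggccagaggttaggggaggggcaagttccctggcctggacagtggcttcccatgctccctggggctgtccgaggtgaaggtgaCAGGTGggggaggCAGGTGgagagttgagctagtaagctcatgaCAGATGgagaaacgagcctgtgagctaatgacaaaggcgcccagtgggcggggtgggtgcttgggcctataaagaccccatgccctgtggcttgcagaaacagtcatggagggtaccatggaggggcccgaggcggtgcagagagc
Myl4, chr11:104550413-104550712: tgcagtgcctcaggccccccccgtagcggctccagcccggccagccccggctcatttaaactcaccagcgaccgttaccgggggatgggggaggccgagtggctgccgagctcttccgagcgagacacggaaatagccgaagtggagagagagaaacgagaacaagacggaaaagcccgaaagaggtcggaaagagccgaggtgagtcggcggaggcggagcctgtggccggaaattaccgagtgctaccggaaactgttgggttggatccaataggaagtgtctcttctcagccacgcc
Myh8, chr11:67276874-67277173: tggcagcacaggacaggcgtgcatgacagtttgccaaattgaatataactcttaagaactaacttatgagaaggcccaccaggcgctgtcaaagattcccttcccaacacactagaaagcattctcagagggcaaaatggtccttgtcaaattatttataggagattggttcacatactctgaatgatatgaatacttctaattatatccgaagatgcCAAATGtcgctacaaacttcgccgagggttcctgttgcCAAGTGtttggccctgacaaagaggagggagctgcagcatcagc

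The Ankrd2 window holds 3 E-boxes, that of Myh8 holds 2 and that of Myl4 none; none of them holds the MEF2-type letters. The Ankrd2 and Myl4 windows lay under peaks of both lists and the Myh8 window under a peak at 60 h alone. An E-box occurred in 72.3% of all 32851 windows of the table and in 63.9% of the 13269 windows of tested genes. It occurred in 75.8% of the windows of genes at least 2-fold higher and in 83.3% of the 54 sarcomere windows. For the MEF2-type motif these shares were 3.69%, 3.12%, 5.73% and 16.7%. These are counts of letters within 300 bases and draw nothing on binding.

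The machinery that couples excitation to contraction rose as well. Of 22 calcium store and triad genes 19 were higher and 1 lower (median 1.27; 1737 to 1792 and 4251 to 4457 CPM summed). Cacna1s, the voltage sensor of the surface membrane, read 13.1, 12.7 and 15.6 CPM at 48 h and 133, 123 and 146 CPM at 96 h, a rise of 3.28 ± 0.086 (adjusted p = 8.75e-18). Ryr1, the calcium release channel it opens, read 68, 67.8 and 63.2 CPM and 297, 284 and 330.4 CPM (2.19 ± 0.093). Casq2 and Casq1, the slow and fast calsequestrins that bind calcium in the store, rose 2.95 ± 0.079 and 3.09 ± 0.27, and the pump Atp2a1 2.39 ± 0.08. Sln, which encodes the pump inhibitor sarcolipin, had 1, 4 and 2 counts at 48 h and 0, 1 and 0 at 96 h and was not tested. Asph, whose isoforms include junctin and an enzyme of the endoplasmic reticulum, fell by 0.49 on the log2 scale.

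Membrane excitability genes were higher in 7 of 10 cases with 0 lower (median 1.24). Scn4a, the adult muscle sodium channel, went from 1.62, 1.11 and 1.36 CPM to 13.2, 12.2 and 13.5 CPM, a rise of 3.24 ± 0.23. The potassium channel gene Kcnn3 was also higher (2.09 ± 0.14). All 10 tested genes of the acetylcholine receptor and neuromuscular junction were higher (median 0.76). Chrng, the foetal receptor subunit, read 55.5, 57.2 and 55.8 CPM at 48 h and 177, 176 and 202 CPM at 96 h, a rise of 1.72 ± 0.064 without overlap. The subunit that replaces it in adult muscle, Chrne, had 0 counts in each 48 h library and 0, 1 and 1 at 96 h. Chrnd, Dok7 and Lrp4, a receptor subunit and adaptors of the agrin signal, rose 1.03 ± 0.061, 1.23 ± 0.094 and 0.82 ± 0.053, and Colq, which anchors acetylcholinesterase, rose 1.61 ± 0.29. With the covariate 7 of the 10 were called and Colq was not (1.34), and with upper-quartile or total-count scaling 9 were.

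In the dystrophin complex and membrane repair list 14 of 16 were higher and 1 lower (median 0.63). Dmd, which encodes dystrophin, went from 0.191, 0.143 and 0.289 CPM to 3.32, 2.76 and 2.99 CPM and Cav3, the caveolin of muscle, from 1.56, 1.61 and 1.9 CPM to 22.5, 21.7 and 23.9 CPM. Both separated the times completely (3.86 ± 0.40 and 3.76 ± 0.15). Dysf, a membrane repair protein, rose 1.99 ± 0.076, and the sarcoglycan Sgca 1.30 ± 0.089. Dtna, which encodes dystrobrevin alpha, was lower (−0.25 ± 0.047).

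**Figure D3:**
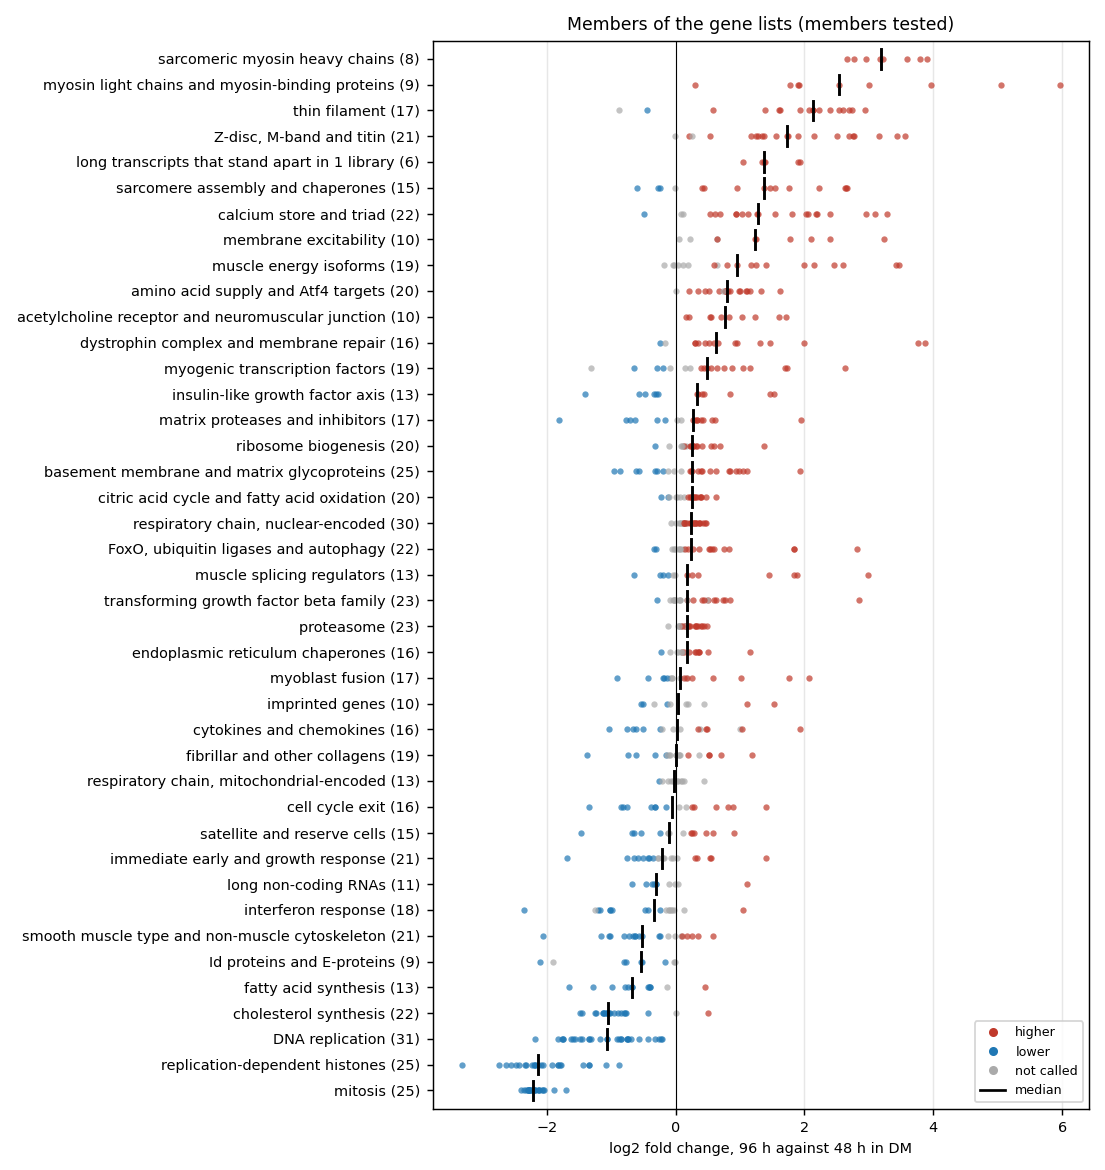
Log2 fold change from 48 to 96 h of every tested member of 41 gene lists, 1 point per gene, with the number tested in brackets and the median as a black line; red points were called higher, blue lower and grey not called. Myosin heavy chains have the highest median (3.19) and mitosis genes the lowest (−2.21), and most lists of signalling and matrix genes hold points on both sides of 0.

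Muscle isoforms of energy metabolism rose in 12 of 19 cases with 0 lower (median 0.95). Mb, the oxygen store myoglobin, read 8.1, 8.62 and 10.7 CPM at 48 h and 101, 99.7 and 101 CPM at 96 h, a rise of 3.47 ± 0.095 (adjusted p = 1.75e-17). Ckm, the muscle creatine kinase, read 22.2, 25.5 and 26.5 CPM and 108, 105 and 116 CPM (2.15 ± 0.089). Art1, a mono-ADP-ribosyltransferase of the muscle surface, rose 3.42 ± 0.15, and Cox6a2, the heart and muscle isoform of a cytochrome oxidase subunit, 2.60 ± 0.20. Pygm, muscle glycogen phosphorylase, went from 4.73, 5.3 and 5.08 CPM to 19.1, 28.1 and 36.2 CPM (2.46 ± 0.17). Among the 7 not called were Slc2a4, the insulin-responsive glucose transporter (0.65), and Ppargc1a, a coactivator of mitochondrial genes (−0.18).

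Changes of the mitochondrial respiratory chain were small. Of 30 nuclear-encoded subunits 22 were higher and 0 lower, with a median of 0.24, and none reached 2-fold. With upper-quartile scaling 17 were higher (median 0.18) and with total-count scaling 16 (median 0.16). Without the first 48 h library 17 were higher. Ndufv1, of complex I, rose 0.46 ± 0.049, Atp5d, of the ATP synthase, 0.45 ± 0.07 and Cyc1, cytochrome c1, 0.43 ± 0.061. Of the 13 mitochondrial-encoded genes 0 were higher and 1 was lower, mt-Nd3 (−0.26 ± 0.082), and the median was −0.019. The call of mt-Nd3 was lost without the third 96 h library. In the citric acid cycle and fatty acid oxidation 13 of 20 were higher and 2 lower (median 0.25): Acadl rose 0.62 ± 0.097, while Acadm and citrate synthase, Cs, were lower (−0.23 ± 0.05 and −0.12 ± 0.038). The call of Cs was lost without the second 96 h library, and with the covariate Acadl, Acadm and Cs were not called (0.13, −0.036 and −0.12), nor were Atp5d (0.33) and mt-Nd3 (−0.17).

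Among 19 myogenic transcription factors 12 were higher and 3 lower (median 0.49). These are 63.2% and 15.8%, against 26.4% and 23.3% of all genes tested. Myog, which drives terminal differentiation, read 239.6, 248 and 258 CPM at 48 h and 790.5, 798 and 820.1 CPM at 96 h, a rise of 1.69 ± 0.061 (adjusted p = 1.13e-15). Mef2c, a partner of the MyoD family on muscle genes, read 13.1, 10.4 and 12.6 CPM and 79, 73 and 70.6 CPM and had the largest rise of the list, 2.63 ± 0.089. Tead4, which acts at muscle promoters with the Hippo pathway, rose 1.73 ± 0.084, Tbx15 1.16 ± 0.064 and Prox1 1.05 ± 0.22. Myod1, which commits cells to the lineage, rose less, 0.39 ± 0.068. Myf5, the earliest factor of the family, read 53.8, 51 and 47 CPM and 33.1, 32.9 and 31.5 CPM and fell (−0.64 ± 0.058). Myf6, the factor of mature fibres, lay between 0.191 and 0.608 CPM at 48 h and between 0.0987 and 0.202 CPM at 96 h, overlapped between the times and did not pass (−1.32 ± 0.56, adjusted p = 0.0558). It passed in 5 alternatives (adjusted p 0.0204 to 0.0461), among them upper-quartile and total-count scaling and the fit without the first 48 h library. With the covariate for the long transcripts 6 factors were higher and 3 lower, Myod1 and Prox1 were not called (0.33 and 1.22), and with upper-quartile or total-count scaling 5 were lower.

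**Figure D4:**
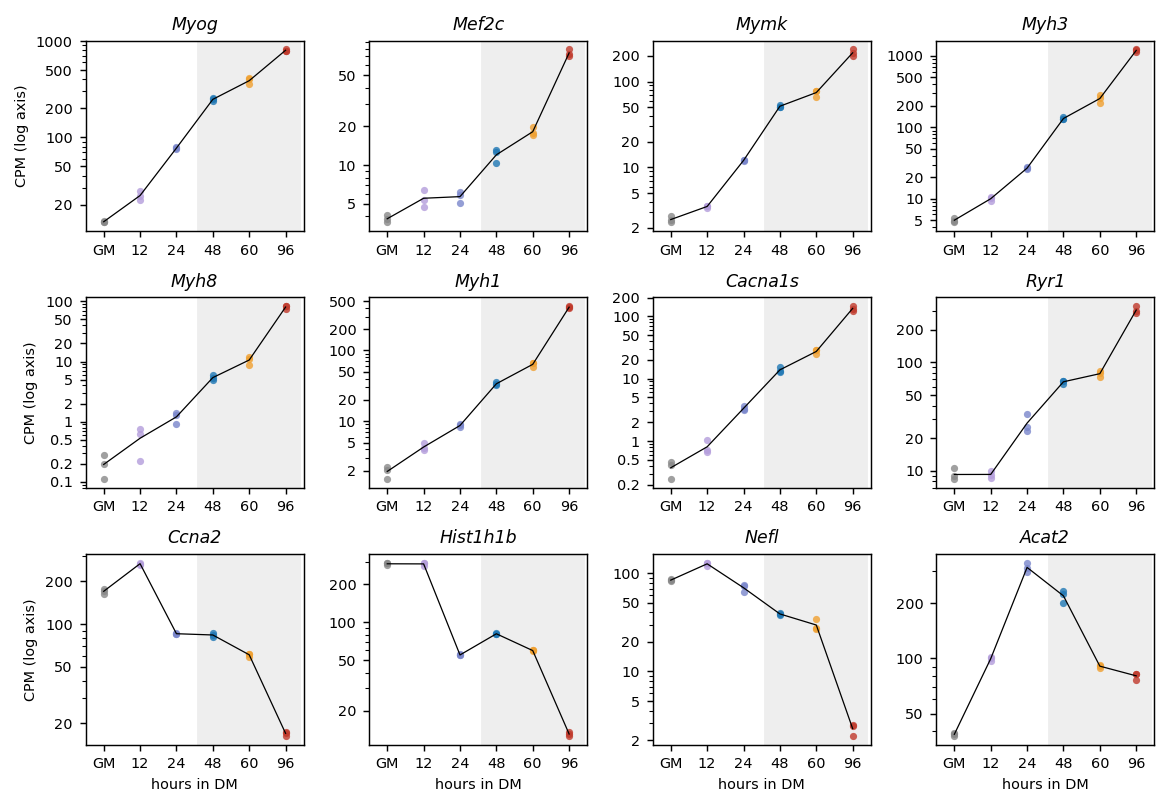
Level of 12 genes in GM and at 12 to 96 h in DM, in CPM on log axes that differ between panels; each point is 1 of 3 libraries, the line joins the means and the shaded area holds 48, 60 and 96 h. The 8 muscle genes reach their highest level at 96 h (Myog near 803 and Myh3 near 1193 CPM), and the 4 others are lower at 96 h than at 48 h.

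Of 17 fusion genes 7 were higher and 5 lower (41.2% and 29.4%, against 26.4% and 23.3% of all genes tested; median 0.07), and with upper-quartile or total-count scaling 5 were higher and 7 lower. The fusogens myomaker and myomixer, listed in the table as Tmem8c and Gm7325, were the largest rises. Mymk read 50.0, 51 and 54 CPM at 48 h and 214, 197 and 237 CPM at 96 h (2.06 ± 0.065), and Mymx went from 20.4, 22 and 23 CPM to 75.1, 72 and 75.1 CPM (1.77 ± 0.072). Cd9, a tetraspanin that restrains fusion, fell from 309.8, 329 and 325 CPM to 167, 171 and 175 CPM (−0.91 ± 0.055). Dock1, which activates Rac1 during fusion, fell (−0.42 ± 0.07), and Rac1 and Jam2 were lower (−0.14 ± 0.044 and −0.20 ± 0.044). The call of Dock5 (−0.19 ± 0.077) had an adjusted p of 0.0482 and was lost without 5 of the 6 libraries, each left out in turn, and its libraries overlapped between the times. Without the third 48 h or the second 96 h library 3 fusion genes were lower instead of 5, and with the covariate Rac1 was not called (−0.12).

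Genes of satellite and reserve cells were called in both directions, 6 of 15 higher and 5 lower. These are 40% and 33.3%, against 26.4% and 23.3% of all genes tested. Cd34, a surface marker of quiescent satellite cells, read 32.2, 34.5 and 34.8 CPM at 48 h and 11.7, 12.4 and 12.4 CPM at 96 h; it fell by 1.48 on the log2 scale. The Notch targets Hes1 and Hey1 fell (−0.68 ± 0.08 and −0.65 ± 0.079) while the receptor Notch1 rose (0.90 ± 0.072). Pax7, the satellite cell factor, read 10.0, 8.73 and 9.08 CPM and 8.06, 8.61 and 8.9 CPM; the libraries overlapped and it did not pass (−0.12 ± 0.095, adjusted p = 0.29). With the covariate for the long transcripts 2 genes of the list were higher and 4 lower. Of the Id proteins, which block the MyoD family by pairing with its E-protein partners, and related factors 0 of 9 were higher and 6 lower (median −0.54). Id1, Id2 and Id3 fell (−0.52 ± 0.096, −0.80 ± 0.12 and −0.54 ± 0.08), and Msc, the repressor musculin, fell from 7.66, 7.59 and 7.02 CPM to 1.65, 2.22 and 1.3 CPM (−2.10 ± 0.15). With the covariate 4 of this list were lower, and Id1 and Id2 were not called (−0.46 and −0.30).

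The genes of proliferation were the other pole of the comparison. All 25 mitosis genes were lower, against 23.3% of all genes tested, and each at least 2-fold (median −2.21), with a summed level of 1688 to 1712 CPM at 48 h and 369 to 397 CPM at 96 h. Bub1, the kinase of the spindle checkpoint, read 46.9, 48.6 and 50.5 CPM at 48 h and 9.74, 9.92 and 7.84 CPM at 96 h (−2.40 ± 0.078, adjusted p = 2.25e-16). Ndc80, of the kinetochore that grips microtubules, fell from 30.8, 31.3 and 32.4 CPM to 5.4, 6.45 and 6.61 CPM (−2.35 ± 0.066). Ccna2, cyclin A2, changed by −2.30 ± 0.047 and the proliferation marker Mki67 −2.06 ± 0.049. The times were apart in all of these, and at 96 h each was still detected, Mki67 at 33.7, 32.7 and 31.2 CPM. With the covariate the 25 were all called lower at a median of −2.22.

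Replication-dependent histone genes fell as a block, 25 of 25 (median −2.14), from 1448 to 1507 CPM summed to 410 to 433 CPM. Hist1h1a and Hist1h1b, linker histones, stood at 52, 51.7 and 50.5 and at 81.1, 80.9 and 82 CPM at 48 h. At 96 h they stood at 4.74, 5.41 and 5.42 and at 12.6, 13 and 13.6 CPM (−3.31 ± 0.058 and −2.64 ± 0.044). Histone genes are near-identical copies, and reads may have been split between them. All 31 DNA replication genes were lower too, with a smaller median of −1.07. Tk1, thymidine kinase, fell from 29.1, 29.3 and 26 CPM to 5.59, 6.18 and 6.86 CPM (−2.18 ± 0.07), and Mcm10, Mcm5 and Cdc6 fell by 1.83, 1.75 and 1.75 on the log2 scale. With the covariate 26 of the 31 were lower.

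The largest falls included 2 genes outside the cell cycle. Nefl, the light neurofilament, led them: 38.4, 39.8 and 37.5 CPM at 48 h and 2.21, 2.86 and 2.78 CPM at 96 h (−3.88 ± 0.10, adjusted p = 1.14e-17). Prl2c3, a proliferin of the prolactin family, followed with 37.8, 38.9 and 39.4 CPM and 3, 3.83 and 3.34 CPM (−3.51 ± 0.11), and has near-identical copies, between which reads may have been split. The others were Hist1h2ap, Hist1h3b, Hist1h2bj and genes of spindle and replication: 2810417H13Rik, which RefSeq names Pclaf, Depdc1a, Dlgap5, Fam64a (Pimreg in RefSeq), Kif2c and Kif22. These 9 fell by 2.35 to 2.56 on the log2 scale.

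Start-site windows are shown for the 3 mitosis genes with the largest falls and a single window, as a contrast to those of the muscle genes (5′ to 3′ on the gene's own strand, the minus strand for all of them, GRCm38.p6). Capitals mark the CCAAT box, CCAAT or ATTGG, and the cell cycle homology region, TTTGAA or TTCAAA, letters known from the promoters of late cell cycle genes.
Bub1, chr2:127831810-127832109: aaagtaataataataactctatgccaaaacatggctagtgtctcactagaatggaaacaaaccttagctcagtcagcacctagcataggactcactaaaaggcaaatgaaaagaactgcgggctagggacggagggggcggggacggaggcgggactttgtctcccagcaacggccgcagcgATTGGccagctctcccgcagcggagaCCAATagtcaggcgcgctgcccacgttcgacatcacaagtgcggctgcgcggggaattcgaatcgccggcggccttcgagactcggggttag
Ndc80, chr17:71526808-71527107: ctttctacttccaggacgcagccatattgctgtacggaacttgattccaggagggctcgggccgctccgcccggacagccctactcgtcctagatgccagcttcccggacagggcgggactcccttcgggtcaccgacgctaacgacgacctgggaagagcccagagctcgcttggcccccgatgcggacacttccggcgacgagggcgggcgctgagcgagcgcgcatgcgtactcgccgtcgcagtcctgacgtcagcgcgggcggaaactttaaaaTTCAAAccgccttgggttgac
Aurka, chr2:172370521-172370820: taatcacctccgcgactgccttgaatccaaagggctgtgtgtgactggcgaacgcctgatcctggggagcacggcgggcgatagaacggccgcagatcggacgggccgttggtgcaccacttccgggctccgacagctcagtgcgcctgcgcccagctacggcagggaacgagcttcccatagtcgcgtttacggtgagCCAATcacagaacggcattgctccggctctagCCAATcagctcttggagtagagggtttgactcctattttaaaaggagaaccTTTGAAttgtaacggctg

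Bub1 holds 2 CCAAT boxes and no TTTGAA, Ndc80 only 1 TTTGAA, and Aurka, a mitotic kinase, 2 CCAAT boxes and 1 TTTGAA, counted on both strands with no overlap between the motifs. CCAAT occurred in 37.4% of all windows, 37.8% of those of tested genes, 48.4% of those of genes at least 2-fold lower and 76.2% of the 21 windows of the mitosis list. For TTTGAA the shares were 17.9%, 12.1%, 23.4% and 66.7%. All 21 mitosis genes with a window had a peak there in both ATAC-seq lists, so that 0 of 21 had one at 60 h alone.

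Cell cycle exit genes divided, 6 of 16 higher and 8 lower (37.5% and 50%, against 26.4% and 23.3% of all genes tested). Cdkn1a, the inhibitor p21, read 75.2, 77.3 and 80.9 CPM at 48 h and 211, 196 and 212 CPM at 96 h (1.41 ± 0.05). Rb1, the retinoblastoma protein, rose 0.62 ± 0.058 and Ccnd3, the cyclin that stays on in myotubes, 0.81 ± 0.059, with Gadd45a at 0.90 ± 0.067. Rbl1, the pocket protein of cycling cells, fell from 25.6, 24.6 and 22.7 CPM to 9.81, 10.2 and 8.69 CPM (−1.34 ± 0.073), and the inhibitors Cdkn2c and Cdkn2d fell (−0.84 ± 0.073 and −0.81 ± 0.08).

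Most lipid synthesis genes were lower at 96 h. Of 22 cholesterol synthesis genes 20 were lower and 1 higher (median −1.05; 3720 to 4140 and 1963 to 2073 CPM summed). Acat2, which makes acetoacetyl-CoA, read 200.5, 224 and 234 CPM at 48 h and 82.7, 76.2 and 82.2 CPM at 96 h (−1.45 ± 0.054). Tm7sf2, a sterol reductase, Idi1, an isomerase of isoprenoid synthesis, and Nsdhl, a sterol dehydrogenase, changed by −1.48 ± 0.098, −1.26 ± 0.067 and −1.24 ± 0.064. Ebp, a sterol isomerase, went the other way (0.50 ± 0.063), and Dhcr7 did not pass. Of 13 fatty acid synthesis genes 11 were lower and 1 higher (median −0.68). Scd2, a desaturase, read 2049, 2114 and 2172 CPM and 1233, 1174 and 1257 CPM (−0.79 ± 0.051), the elongase Elovl6 changed by −1.65 ± 0.069 and Fads2 by −1.28 ± 0.074, while Gpam, which starts glycerolipid synthesis, rose 0.45 ± 0.056.

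Amino acid supply and targets of the stress factor Atf4 went up, 18 of 20 higher and 0 lower (median 0.79). Slc7a5, the transporter of large neutral amino acids, read 33.3, 30.2 and 31.7 CPM at 48 h and 97.8, 91.3 and 104 CPM at 96 h (1.62 ± 0.068). Mthfd2, of mitochondrial folate metabolism, rose 1.32 ± 0.068, asparagine synthetase, Asns, 1.11 ± 0.054 and the cystine transporter Slc7a11 1.09 ± 0.13. At 48 h the list lay below GM (median −1.60), and Asns and Slc7a11 stood at −2.19 and −3.61 there; both comparisons use the 48 h libraries. Ribosome biogenesis followed at a smaller size, 14 of 20 higher and 1 lower (median 0.26): Rrp12 rose 1.37 ± 0.06, Polr1b, a subunit of RNA polymerase I, 0.70 ± 0.07 and Bop1 0.59 ± 0.062, and nucleophosmin, Npm1, changed by −0.33 ± 0.058. Endoplasmic reticulum chaperones were higher in 10 of 16 cases and lower in 1 (median 0.17), led by Herpud1, of protein disposal from the reticulum (1.16 ± 0.055), with Hsp90b1 lower (−0.22 ± 0.045). With the covariate Npm1 and Hsp90b1 were not called (−0.085 and −0.051), and both lists had 0 lower.

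Proteolysis genes rose in part. Of 22 genes of FoxO signalling, ubiquitin ligases and autophagy 13 were higher and 2 lower (median 0.23). These are 59.1% and 9.09%, against 26.4% and 23.3% of all genes tested. The muscle ubiquitin ligase Trim63, known as MuRF1, read 6.96, 7.33 and 6.61 CPM at 48 h and 26.2, 24.6 and 24.1 CPM at 96 h (1.84 ± 0.087). Trim54, its relative, rose 1.84 ± 0.08 and Fbxo40, a ligase subunit that acts on the insulin receptor substrate, 2.82 ± 0.20. The mitophagy receptors Bnip3 and Bnip3l were lower (−0.30 ± 0.07 and −0.34 ± 0.048), and Fbxo32, the other known atrophy ligase, was not called (0.11). Of 23 proteasome subunits 15 were higher and 0 lower, with a median of 0.17 and the largest at 0.49 (Psmb5). Under total-count scaling 11 genes of the FoxO list were higher and 5 lower, and 10 proteasome genes were higher and 1 lower. With upper-quartile scaling 11 proteasome genes were higher and 1 lower. With the covariate 0 genes of the FoxO list were lower, and Bnip3 and Bnip3l stood at −0.023 and −0.15.

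Collagens were called higher in 5 of 19 cases and lower in 5 (26.3% each), shares near those of all genes tested, 26.4% and 23.3%. Col1a1, the alpha 1 chain of type I collagen, read 69.1, 71.6 and 68.8 CPM at 48 h and 152, 145 and 179 CPM at 96 h (1.18 ± 0.10), while Col1a2, its partner chain, was not called (−0.10). Col18a1, the collagen that yields endostatin, fell from 59.1, 63.1 and 60.2 CPM to 22.8, 22.1 and 25.4 CPM (−1.38 ± 0.067), and Col16a1 and Col6a3 changed by −0.74 ± 0.069 and −0.62 ± 0.066. Of 25 basement membrane and matrix glycoproteins 15 were higher and 7 lower. Hspg2 and Fn1, among the long transcripts above, rose 1.93 ± 0.22 and 1.05 ± 0.16, and periostin, Postn, rose 1.10 ± 0.073. Tenascin C, Tnc, and thrombospondin 2, Thbs2, changed by −0.95 ± 0.056 and −0.86 ± 0.046. With the covariate 2 collagens and 6 of the glycoproteins were higher, with 5 and 7 lower, and these counts include Hspg2 and Fn1, which make up part of the covariate.

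Secreted regulators changed in both directions. Over all genes tested 26.4% were higher and 23.3% lower. The shares were 52.9% and 35.3% for matrix proteases and inhibitors and 53.8% and 46.2% for the insulin-like growth factor axis. For the transforming growth factor beta family they were 47.8% and 4.35%. Of 17 matrix proteases and inhibitors 9 were higher and 6 lower: the stromelysin Mmp3 rose 1.94 ± 0.34 from levels under 1 CPM, Mmp10 changed by −1.81 ± 0.28 and urokinase, Plau, fell from 252, 255 and 246 CPM to 143, 150.3 and 149 CPM (−0.76 ± 0.04). In the insulin-like growth factor axis 7 of 13 were higher and 6 lower. Igf2, which signals in an autocrine way in differentiating myoblasts, read 10.1, 10.4 and 9.95 CPM at 48 h and 31.7, 25.6 and 30.6 CPM at 96 h (1.53 ± 0.085), and Igf1 rose 0.85 ± 0.096. Among the binding proteins Igfbp4 rose 1.47 ± 0.088, whereas Igfbp2 fell from 373, 383 and 385 CPM to 140.3, 139 and 149 CPM (−1.41 ± 0.066). In the transforming growth factor beta family 11 of 23 were higher and 1 lower. Follistatin, Fst, which traps activin and myostatin, led it with 12.8, 13.8 and 15.7 CPM at 48 h and 105, 103 and 94 CPM at 96 h (2.84 ± 0.083). Tgfb3 rose 0.84 ± 0.05 and Inhbb, an activin subunit, 0.62 ± 0.059, while myostatin itself had 3, 4 and 0 counts at 48 h and 1, 3 and 2 at 96 h. With the covariate 3 proteases and inhibitors were lower and Mmp3 was not called (1.42), and 3 growth factor axis genes and 6 genes of the transforming growth factor beta family were higher.

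H19, the imprinted non-coding RNA, read 2950, 3156 and 3329 CPM at 48 h and 6921, 6595 and 6899 CPM at 96 h (1.11 ± 0.065). It and its neighbour Igf2 were the 2 of 10 imprinted genes called higher, and Mest, Sgce and Peg3 were lower (−0.51 ± 0.064, −0.54 ± 0.041 and −0.13 ± 0.047). These shares, 20% higher and 30% lower, were near those of all genes tested, 26.4% and 23.3%. The call of Peg3 was lost without the first 48 h, the second 96 h or the third 96 h library. Of 11 long non-coding RNAs H19 was the 1 called higher and 6 were lower, with Dnm3os (−0.68 ± 0.088) and the snoRNA host Snhg1 (−0.37 ± 0.075) among them. Without the first 48 h or the second 96 h library 3 of them were lower. By the biotypes of the table, lower calls outnumbered higher ones in these non-coding classes: 17 of 93 snoRNAs were lower and 0 higher, and 158 of 623 unconfirmed transcripts (class TEC) were lower and 17 higher, where 3110 of 12841 protein-coding genes were lower and 3915 higher. The shares of both classes called lower were near or below that of all genes tested, 23.3%. Few or none were called higher, against 26.4% of all genes tested. Of the 5 largest falls outside the protein-coding class 3 were of small nuclear RNAs with wide errors. Rnu1b1, a U1-type RNA, read 18, 8.8 and 29.1 CPM and 3.55, 5.04 and 2.99 CPM (−2.25 ± 0.38), and Gm26232 and Gm24830 changed by −1.70 ± 0.36 and −1.51 ± 0.40. The lincRNA Gm42743 (−1.67 ± 0.10) and 2610203C20Rik (−1.35 ± 0.069) fell with smaller errors, and the pseudogene Gm7993 rose 1.03 ± 0.093. With the covariate Snhg1, Gm26232 and Gm24830 were not called (−0.13, −1.68 and −1.25).

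Interferon response genes were lower in 9 of 18 cases and higher in 1 (median −0.34). Ifit1, which binds foreign RNA, fell from 3.4, 3.69 and 3.88 CPM to 0.691, 0.672 and 0.774 CPM (−2.35 ± 0.16), and the RNA sensor Ifih1 and Oasl2 changed by −1.02 ± 0.19 and −1.17 ± 0.24. The call of Mx2 as higher was the 1 exception; it stood under 1 CPM in all 6 libraries, and the call was lost whichever of the 6 libraries was left out. Cytokines and chemokines were higher in 5 of 16 cases and lower in 6 (31.2% and 37.5%, against 26.4% and 23.3% of all genes tested), with the myokine Il15 up (1.03 ± 0.17) and Ccl2, which attracts monocytes, down (−1.03 ± 0.12). Of 21 immediate early and growth response genes 5 were higher (23.8%) and 8 lower (38.1%), a balance that became 14 lower with upper-quartile or total-count scaling. Fosl1 fell from 2.83, 2.86 and 2.15 CPM to 0.724, 0.572 and 1.16 CPM (−1.69 ± 0.22), Fos changed by −0.76 ± 0.15 and Junb rose 0.53 ± 0.081. Without the first 48 h library 3 cytokines were higher. With the covariate 5 interferon genes were lower, 2 cytokines were higher and 3 lower, and 2 immediate early genes were higher and 6 lower; Mx2, Il15 and Fos were not called in it (0.84, 0.55 and −0.45).

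Genes of the smooth muscle type and non-muscle cytoskeleton were lower in 13 of 21 cases and higher in 5 (median −0.52). Vim, vimentin, the intermediate filament of myoblasts, read 3589, 3659 and 3634 CPM at 48 h and 2048, 1989 and 2177 CPM at 96 h (−0.81 ± 0.04). Tpm4, a non-muscle tropomyosin, fell from 566, 593 and 594 CPM to 292, 282 and 281 CPM (−1.04 ± 0.044), and Tagln2, Actg2 and Cnn1 changed by −1.02 ± 0.053, −1.16 ± 0.072 and −2.05 ± 0.42. Acta2, the smooth muscle actin, was higher (0.35 ± 0.045), as was nestin, Nes (0.25 ± 0.05). Muscle splicing regulators were higher in 7 of 13 cases and lower in 4 (53.8% and 30.8%, against 26.4% and 23.3% of all genes tested). Rbfox1, a splicing factor of muscle and brain, went from 0.0953, 0.286 and 0.413 CPM to 2.57, 1.98 and 1.55 CPM (2.98 ± 0.39). Rbm38, Srpk3 and Rbm24 rose 1.89 ± 0.13, 1.84 ± 0.14 and 1.45 ± 0.071, while the muscleblind genes Mbnl1, Mbnl2 and Mbnl3 were lower (−0.20 ± 0.045, −0.12 ± 0.044 and −0.64 ± 0.092). The call of Mbnl2 was lost without the second 48 h or the third 96 h library. With the covariate 3 cytoskeleton genes were higher and 15 lower, and 2 splicing regulators were lower, Mbnl1 and Mbnl2 (−0.17 and −0.14) not among them.

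The 60 h libraries divide the interval into a step of 12 h and a step of 36 h, and the difference between the steps was tested as a contrast (the change from 60 to 96 h minus the change from 48 to 60 h). It was positive for 2382 genes (15.6%) and negative for 3133 (20.5%). The steps share the 60 h libraries and differ in length, so a gene that changes at a steady rate per hour also gives a difference. At 60 h protein-coding genes held 65.2 to 65.9% of the counts, against 68.6 to 69.7% at 48 h and 67.4 to 69.2% at 96 h, and Rn7s1 and Rn7s2, RNAs of the signal recognition particle, held 23.1 to 24.3%, against 19.2 to 20.2% and 20.5 to 23.2%. With the covariate for the long transcripts 1053 genes were called in all, where the fit without it called 5515.

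Contractile lists had positive medians in both steps. The median of the heavy chains was 0.92 from 48 to 60 h and 2.36 from 60 to 96 h, that of the thin filament 0.63 and 1.44 and that of the calcium store 0.40 and 1.08. Neuromuscular junction genes had medians of 0.06 and 0.74: Chrng changed by 0.057 ± 0.065 (adjusted p = 0.553) and then by 1.66 ± 0.064 (adjusted p = 7.97e-15). Cholesterol synthesis had its larger median in the shorter step, −0.63 and then −0.31, as fatty acid synthesis did, −0.79 and 0.06. Acat2 changed by −1.27 ± 0.054 in the 12 h and −0.18 ± 0.054 in the 36 h, and the difference of 1.10 ± 0.095 had an adjusted p of 1.44e-08. In the cholesterol list the difference was positive for 12 of 22 genes and negative for 0, and in the fatty acid list for 12 of 13 and 0.

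The DNA replication list had medians of opposite sign in the 2 steps, 0.38 from 48 to 60 h and −1.52 from 60 to 96 h. The difference was negative for all 31 genes, against 20.5% of all genes. Mcm5, of the replicative helicase, read 28.4, 34.9 and 28.7 CPM at 48 h, at 60 h 49.5, 55 and 53 CPM and at 96 h 7.67, 9.51 and 10.2 CPM. The 60 h libraries were the highest of the 3 times, with a rise of 0.78 ± 0.077 (adjusted p = 2.75e-07) before a change of −2.53 ± 0.088 (adjusted p = 1.59e-15). Ccne2, cyclin E2, which starts S phase, had the most negative difference among called genes above the level minimum, −4.07 ± 0.18 (adjusted p = 2.78e-13). It read 14.8, 17.9 and 17.9 CPM, 32.9, 38.4 and 35.4 CPM and 4.08, 5.41 and 3.94 CPM at 48, 60 and 96 h. The medians of the mitosis list were −0.57 and −1.56, and those of the histones −0.37 and −1.79.

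Angptl4 and Tagln were also highest at 60 h. Angptl4, a secreted inhibitor of lipoprotein lipase, read 28.8, 29.98 and 31.5 CPM at 48 h, at 60 h 73.1, 95.6 and 70.0 CPM and at 96 h 18.7, 19.8 and 17.5 CPM. Tagln, transgelin, an actin-binding protein of smooth muscle type, read 53.8, 54.6 and 56, 155, 166 and 161 and 46.1, 40.1 and 50.7 CPM at those times. Each is lower at 96 h than at 48 h (−0.69 ± 0.094 and −0.26 ± 0.065) by less than it changed in either step; with the covariate Tagln and Tenm4 were not called from 48 to 96 h. The most positive differences were those of Polr2a (3.24 ± 0.57), Hspg2 (3.19 ± 0.41) and Lrp1 (2.65 ± 0.36), which belong to the long transcripts, of Tenm4, a teneurin of the cell surface (2.85 ± 0.28), and of Gm24497. From 48 to 60 h Hspg2, Lrp1 and Tenm4 were lower (−0.64 ± 0.22, −0.63 ± 0.20 and −0.86 ± 0.16), and Polr2a did not pass (−0.67 ± 0.33, adjusted p = 0.138). The small nuclear RNA Gm24497 (3.06 ± 0.86) overlapped between 48 and 96 h. Endoplasmic reticulum chaperones had medians of 0.47 and −0.24 and a negative difference for 12 of 16: Hsp90b1 rose 0.49 ± 0.045 and then changed by −0.71 ± 0.045.

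**Figure D5:**
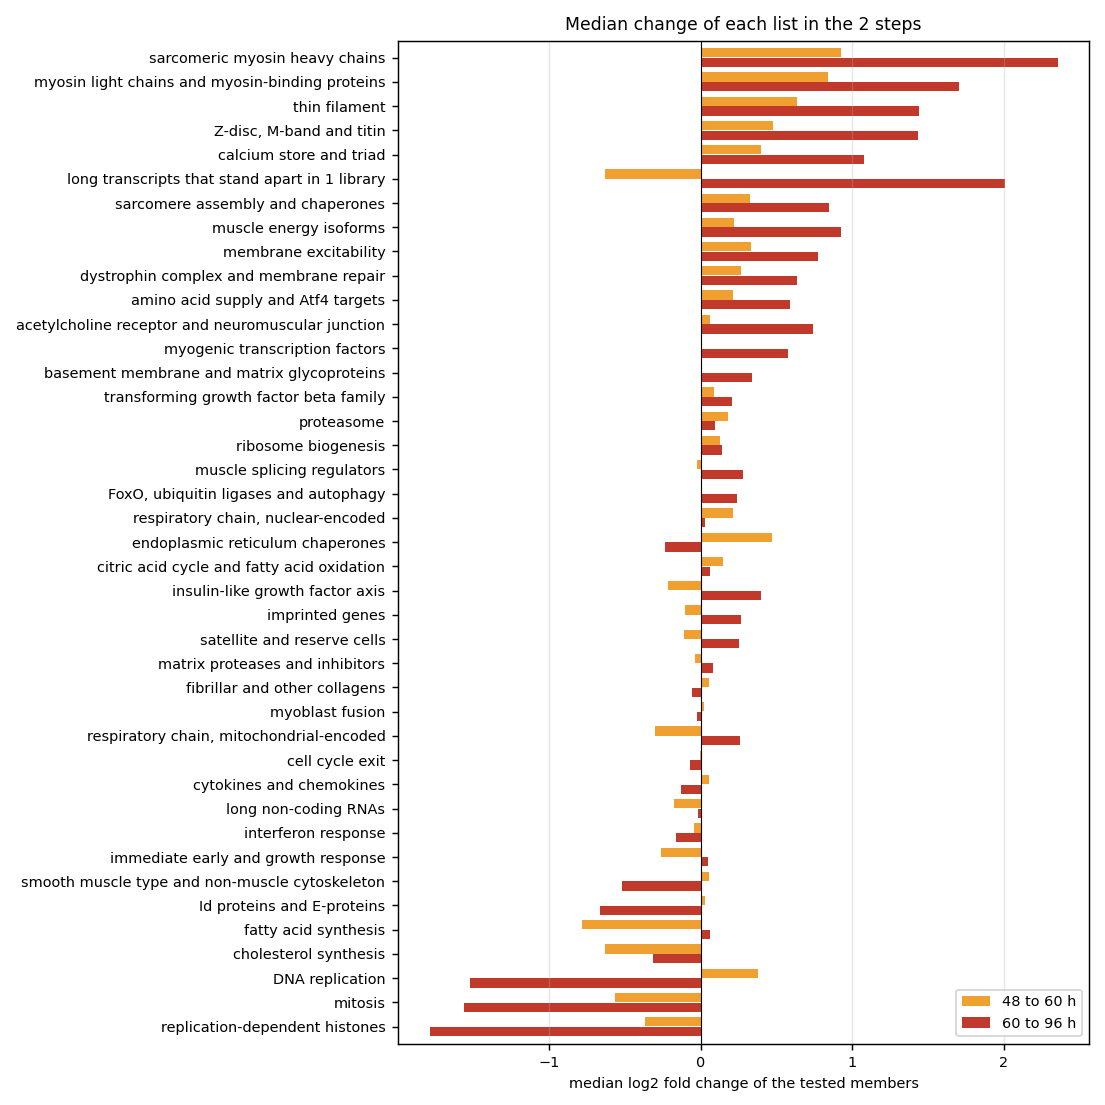
Median log2 fold change of the tested members of each of 41 gene lists from 48 to 60 h (orange) and from 60 to 96 h (red); bars start at 0, and the steps last 12 h and 36 h. Contractile lists have bars to the right in both steps, DNA replication has 0.38 and −1.52, and cholesterol and fatty acid synthesis have the longer bar in the 12 h step.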

How the data were processed

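The deposited gene table holds whole-number counts for 18 RNA-seq libraries; per the submitters' processing notes, which give no roles, STAR, RSEM and DESeq2 were among the tools and mm10 the build, and the sources used here do not say how RSEM estimates became whole counts. The sample times come from the titles, since the hours in the growth protocol texts run up from sample to sample. The ATAC-seq peak lists were used as the authors deposited them, with their −log10 q-values from MACS2 2.2.7, per the submitters' processing notes.

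Counts were analysed with edgeR 4.0.16 in R 4.3.3: genes were filtered by filterByExpr, scaled by TMM and fitted by group over all 18 libraries, which leaves 12 residual degrees of freedom. Contrasts were tested with the quasi-likelihood F test and Benjamini-Hochberg adjustment over all 15303 genes. The biological coefficient of variation was 0.0621. CPM used TMM library sizes. No pair of replicates agreed within sampling noise (chi-square divided by its degrees of freedom was 8.24 to 20.3), and 0 columns of the count table were left unused. The edgeR model was tried on counts simulated with the model's own dispersions. Of 15001 genes tested there, 67, 67 and 66 were changed 1.5-fold, 2-fold and 4-fold at 96 h. All others had equal means in all groups. The model recovered 73.1%, 91% and 100% of these changes and called 8 unchanged genes. In the data 49.7% of genes were called, far more than were changed there, so the percentages are not the sensitivity of this comparison. DESeq2 1.42.0 was the alternative tool on the deposited counts.

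Named genes were a panel, the 15 largest rises and falls of protein-coding genes and 5 each of other biotypes at a mean log2 CPM of at least 3, up to 5 called members of each list with those against its majority, and the 5 largest differences between steps in each direction. The members and lists were chosen with earlier results of these data known; other members named were chosen after their values were seen. Of the listed symbols 3 were matched by gene ID (Mymk, Mymx and Cavin1). The RefSeq tables used were of GRCm38.p6. Some named genes are not reported here.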

Additional observations from a re-analysis of the deposited data

How the results depend on the processing

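The counts over all genes stayed within 1.5 times of those reported in every alternative except 1. With the level of the 6 long transcripts as a covariate, the calls from 48 to 96 h fell to 2339 higher and 2131 lower, and 1053 genes differed between the steps. That fit also turned the sign of Actn4 (−0.365), Col8a1 (0.049), Pdgfrb (−0.111) and Sox9 (−0.327). Actn4 was called lower in it, and Col8a1, Pdgfrb and Sox9 were not called. A further 62 of 303 named genes kept their sign and lost their call. The cause was not tested. Fn1 (−0.125), Kmt2d (−0.35), Lrp1 (−0.034) and Polr2a (−0.122) turned too, which the fit builds in, since they make up part of the covariate. Of these Kmt2d was called lower, and Fn1, Lrp1 and Polr2a were not called. Myf6 was not called but passed in 5 alternatives. Leaving out each of the 6 libraries in turn gave 3430 to 3745 higher, 3244 to 3328 lower and 4761 to 5226 with a difference between steps. Where this left 2 libraries at a time, the spread was pooled over all groups. DESeq2 called 3776 higher and 3451 lower, and without a count filter 3692 were higher and 3811 lower. In the fits other than the covariate, between 0 and 11 of the named genes lost their call, most often Vcl, Sox9, Mx2 and Cd68, and none changed sign.

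The replicate numbers were also fitted as a replicate block, which gave 3999 higher, 3519 lower and 5423 with a difference between steps and changed no named call. Deviations of same-numbered 48 h and 96 h libraries correlated at −0.046, −0.303 and −0.266, and those of differently numbered ones at −0.063 to 0.352. The highest was that of the third 48 h with the second 96 h library. The numbers were thus not used to pair the samples. With peaks of a −log10 q of at least 2 the start sites with a peak at 60 h alone numbered 113 over all genes, and with an overlap of at least 150 bases 124. Genes under about 1 CPM, such as Mx2 and Myf6, rest on few counts, and their fold changes are the least precise.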
